A study of Mus musculus with 12 samples.

Results

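The genes described here are 10 mouse inflammatory genes, *S100a8*, *S100a9*, *Il1a*, *Il1b*, *Tnf*, *Il6*, *Il11*, *Il17a*, *Ptgs2* and *Nos2*. They were chosen by name, as the genes of both deposited tables that carry these symbols, and all 10 were found among the 54532 genes of each table. They were followed in colon tumors with and without ieCtnnb1, an intestinal enhancer of *Ctnnb1*, and in small intestinal crypts for contrast.

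RNA-seq was performed on 12 libraries of C57BL/6-background mice, in 4 groups of 3. Tumors came from 5-month-old mice labelled APCmin/+, which carry a nonsense mutation in 1 copy of *Apc*, and from mice labelled APCmin/+;ieCtnnb1KO, which also lack the enhancer. Crypts came from adult mice labelled Wild type and ieCtnnb1KO, none of which carry the *Apc* allele. The deletion was made with CRISPR/Cas9 and is homozygous in every cell of a knockout mouse, immune and stromal cells included, and the labels do not say whether tumors of a mouse were pooled. APCmin/+ and Wild type samples are called controls here, and the others knockouts. The recovered fragments on genes numbered 14457896 to 16156712 per library. Values are FPKM, a measure of transcript level that allows for gene length and depth, and each table was normalized separately, so that levels in tumors and crypts can be set side by side only roughly.

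Inflammation in the intestine is carried by a chain of signals. Interleukin-1 and TNF, released by macrophages, neutrophils and damaged epithelium, act through NF-κB to switch on further cytokines, prostaglandin synthesis and chemokines of the CXC family, and these chemokines draw neutrophils into the tissue through the receptor CXCR2. Neutrophils in turn hold large stores of the S100A8 and S100A9 proteins, IL-6 and IL-11 signal through the shared receptor chain gp130 to STAT3 in epithelial cells, and IL-17A from T cells and innate lymphoid cells amplifies the production of chemokines by the epithelium.

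*Ctnnb1*, the target of the deleted enhancer, was read first as a check of the labels. Its FPKM was 298.6, 363 and 358 in control tumors and 279, 248 and 250.2 in knockout tumors. In crypts it was 121, 134 and 123 in controls and 102, 104 and 105 in knockouts. All knockout libraries were below all control libraries in both tissues, as 10.6% of tested genes were in tumors and 5.15% in crypts. The difference of mean log2(FPKM + 0.5), knockout minus control, was −0.39 in tumors (SE 0.13, Benjamini-Hochberg adjusted p = 0.303 from limma). In crypts it was −0.28 (SE 0.12, adjusted p = 0.849 from limma). The deleted enhancer has no row of its own in the tables. Epithelial markers were high in every library, with a summed FPKM of 8 genes between 3665 and 5060 in tumors and between 3867 and 5076 in crypts, where *Krt8* was the most abundant in both. *Car1*, an anhydrase of the colonic surface, was between 46.7 and 201 in tumors. The same tumors also held *Lyz1* and *Defa24*, products of Paneth cells, which are typical of the small intestine, at an FPKM of at least 677 and 225 in every library. Their means were 1094 and 395 in tumors, beside 8228 and 12578 in small intestinal crypts. *Olfm4*, a stem cell marker of small intestinal crypts, had a mean of 0.145 in tumors and 790 in crypts. These markers go both ways, and the place of the tumors within the intestine was not tested. *Xist*, which is transcribed from the inactive X chromosome of females, was at 114 and 61.4 in replicate 3 of the control and knockout tumors and under 0.07 in the other tumor and in all crypt libraries. Each tumor genotype therefore holds 1 library with *Xist* and 2 without.

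*S100a8* and *S100a9*, which encode the 2 chains of calprotectin, a calcium-binding alarmin that neutrophils release, were the most abundant of the 10 genes in tumors. Both were lower in knockout tumors, to about the same extent. *S100a8* (ENSMUSG00000056054; GRCm38 chr3:90668978-90670035, plus strand) had an FPKM of 66.8, 153 and 98.2 in control tumors and of 64.7, 31.2 and 63.2 in knockout tumors. *S100a9* (ENSMUSG00000056071; chr3:90692632-90695721, minus strand) had 112, 259.9 and 180.2 in control tumors and 110.0, 51.8 and 111 in knockout tumors. For each gene the 3 knockout libraries lay below the 3 controls, but only just: control replicate 1 was level with knockout replicates 1 and 3, and the distance between the groups was widened by control replicate 2, the highest, and knockout replicate 2, the lowest. The means were 105.9 ± 43.5 and 53.0 ± 19.0 (SD, n = 3 each) for *S100a8*, a ratio of 0.501, and 184 ± 74.1 and 90.9 ± 33.9 (SD, n = 3 each) for *S100a9*, a ratio of 0.494. On the scale of log2(FPKM + 0.5), the difference between knockout and control was −0.98 (SE 0.38, 95% interval −1.90 to −0.07) for *S100a8* and −1.01 (SE 0.40, 95% interval −1.96 to −0.06) for *S100a9*. Neither passed the test across all genes, with an unadjusted p of 0.0383 and 0.0399 and a Benjamini-Hochberg adjusted p of 0.331 and 0.335 from limma. An exact two-sided permutation test gave p = 0.1 for each, the smallest that 3 libraries against 3 allow. Without control replicate 2 the log2 differences were −0.68 and −0.72 (unadjusted p = 0.109 and 0.117 from limma), without control replicate 3 −0.997 and −0.99 (0.0785 and 0.0904), and without knockout replicate 2 −0.64 and −0.65 (0.106 and 0.109).

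The pair moved almost as 1 gene. The FPKM of *S100a9* was between 1.66 and 1.84 times that of *S100a8* in the 6 tumor libraries, so the 2 genes do not count as independent observations of the genotypes. Among 14550 other genes with a mean tumor FPKM of 1 or more, *S100a9* had the pattern most like that of *S100a8* over the 6 tumor libraries, with a Pearson r of 0.998, and r was 0.996 once the mean of each genotype had been removed. The next in order were *Ankmy2* (r = 0.996), *Rdh1* (0.990), *Steap2* (0.987) and *Pik3c3* (0.986). These are descriptions over 6 libraries and were not tested. Which cells of the tumors held these transcripts was not tested. Fewer such cells in a tumor and less of the transcripts in each cell cannot be told apart in whole tissue.

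**Figure D1:**
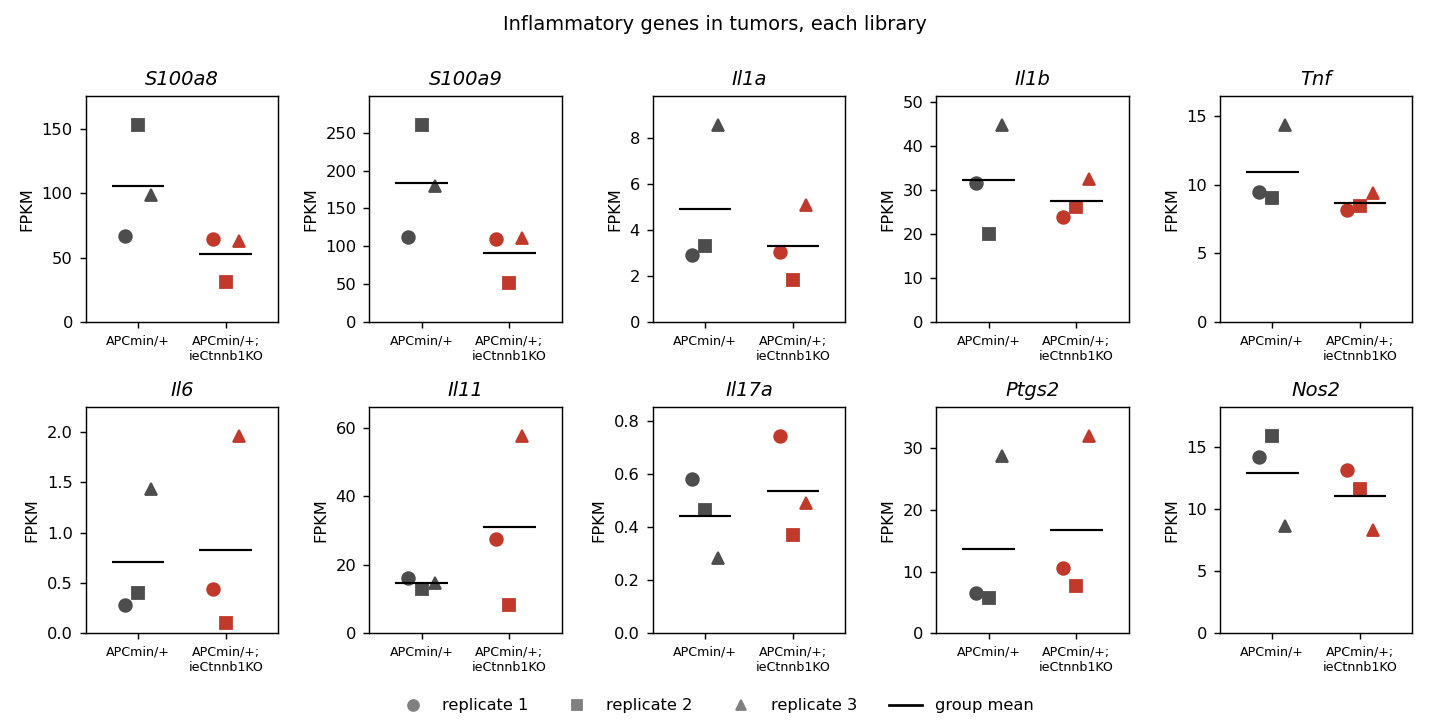
FPKM of each of the 10 genes in the 6 tumor libraries, with a panel and a linear axis from 0 for each gene; gray marks are APCmin/+ and red marks APCmin/+;ieCtnnb1KO, the shape gives the replicate number and the line the group mean. For *S100a8* and *S100a9* all red marks lie below all gray ones, by a narrow margin, and for *Il1a*, *Il1b*, *Tnf*, *Il6* and *Ptgs2* the triangle of replicate 3 is highest in both genotypes.

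Of the 10 genes, 9 reached the filter (mean FPKM 0.5 or more) in tumors and entered the test, and *Il17a* did not. None had an adjusted p under 0.05 (0% of the 16743 genes tested), and their adjusted p ran from 0.331 to 0.996. An unadjusted p under 0.05 in the direction of lower values in knockouts was found for 2, where 5.997% of all tested genes met it, and for 0 in the direction of higher values, where 8.46% met it. Groups that did not overlap were found for the same 2 genes, both lower (10.6% of all tested genes), and for 0 that were higher (11.4% of all tested genes). These 2 are the calprotectin pair. The median log2 difference of the 9 genes was −0.20, beside 0.01 over all tested genes, with 6 below 0 and 3 above. The balance over all tested genes depended on scaling: 1417 were higher and 1004 were lower by the unadjusted p, but 1075 and 1346 after rescaling to the same sum, and 1072 and 1354 after rescaling without the 50 highest genes.

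The promoters of *S100a8* and *S100a9* are shown because these 2 genes moved together. Those of *Il6* and *Ptgs2* are shown as 2 of 5 genes that share another pattern, highest in replicate 3 of both genotypes. RefSeq promoter sequences were matched for 9 of the 10 genes, with none for *Nos2*. The 250 bases before the start were searched on both strands for a C/EBP motif (TTGCNNAA), an AP-1 motif (TGANTCA) and a TATA box (TATAAA). Capitals mark the matches. The start of *S100a8* in RefSeq lies inside the gene as the table places it, so that the end of its window falls within the gene. The windows are chr3:90668821-90669070 on the plus strand, chr3:90695722-90695971 on the minus strand, chr5:30012864-30013113 on the plus strand and chr1:150099781-150100030 on the plus strand of GRCm38.p6.
S100a8: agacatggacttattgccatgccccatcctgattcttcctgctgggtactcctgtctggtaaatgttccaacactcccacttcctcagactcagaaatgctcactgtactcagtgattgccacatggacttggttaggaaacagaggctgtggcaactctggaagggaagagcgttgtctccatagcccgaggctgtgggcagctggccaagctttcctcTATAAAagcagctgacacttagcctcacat
S100a9: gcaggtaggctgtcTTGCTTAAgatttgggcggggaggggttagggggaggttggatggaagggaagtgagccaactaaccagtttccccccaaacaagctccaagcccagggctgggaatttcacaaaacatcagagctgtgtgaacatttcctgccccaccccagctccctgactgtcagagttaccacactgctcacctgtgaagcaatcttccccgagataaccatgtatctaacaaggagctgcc
Il6: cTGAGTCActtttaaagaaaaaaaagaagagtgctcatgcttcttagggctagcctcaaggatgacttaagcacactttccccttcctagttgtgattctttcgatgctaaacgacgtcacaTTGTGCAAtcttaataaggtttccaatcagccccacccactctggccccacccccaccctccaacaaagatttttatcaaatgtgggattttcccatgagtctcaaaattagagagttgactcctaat
Ptgs2: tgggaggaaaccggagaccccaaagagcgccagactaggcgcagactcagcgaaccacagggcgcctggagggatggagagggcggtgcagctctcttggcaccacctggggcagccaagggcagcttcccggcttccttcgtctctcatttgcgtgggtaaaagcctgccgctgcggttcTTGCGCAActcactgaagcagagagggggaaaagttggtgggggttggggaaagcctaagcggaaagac
*S100a8* held the TATA box only, and *S100a9* a C/EBP match only, so that none of these 3 motifs was in both. *Il6* held a C/EBP and an AP-1 match, and *Ptgs2* a C/EBP match. *Il1a*, *Il1b* and *Tnf*, which share the replicate 3 pattern and are not printed, held a TATA box and no C/EBP match, and *Il1a* also an AP-1 match. Over 32851 promoters of the same length, 9.56% held the C/EBP motif, 6.75% the AP-1 motif and 12.4% the TATA box. Of the 9 genes, 3, 4 and 5 held them, in that order, where a gene counts if any of its promoters does: *Il11* has 2, and 1 of them holds its AP-1 match, so that these counts of genes are not in the unit of the shares. A match describes the letters of the window only. An NF-κB motif of 10 letters was also searched and is not marked in the sequences; 1.41% of all promoters held it, and of the 9 genes only *Il6*.

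The interleukin-1 ligands are among the first cytokines of the response. *Il1b* (ENSMUSG00000027398), which is secreted by activated macrophages and neutrophils, had an FPKM of 31.7, 20.1 and 44.7 in control tumors and of 23.9, 26.1 and 32.6 in knockout tumors. The knockout values lay within the range of the controls, which spanned more than the difference between the group means. The log2 difference was −0.16 (SE 0.28, adjusted p = 0.809 from limma), and it was 0.11 without control replicate 3. *Il1a* (ENSMUSG00000027399), an alarmin of epithelial and other cells, had 2.91, 3.29 and 8.54 in control and 3.05, 1.83 and 5.07 in knockout tumors, where replicate 3 was the highest library of each genotype. Its log2 difference of −0.45 (SE 0.46, adjusted p = 0.659 from limma) was no larger than its error, and without control replicate 3 it was 0.00. It was −0.71 without control replicate 1 and −0.76 without knockout replicate 3. Both genes share bases with a gene on the opposite strand, *Il1b* with *Il1bos* and *Il1a* with *Gm14023*, whose mean FPKM in tumors was 0.280 and 0.407. The use of the strand in counting is not stated, so fragments of such pairs cannot be told apart.

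The 5 genes with the pattern most like that of *Il1b* were *Gbp2* (r = 0.976), *Gadd45g* (0.9747), *Dis3l2* (0.965), *Gm10226* (0.954) and *Brd7* (0.952), none of which is another member. *Tnf* (ENSMUSG00000024401), the other early activator of NF-κB, had an FPKM of 9.46, 9.06 and 14.3 in control tumors and of 8.15, 8.44 and 9.39 in knockout tumors. The groups overlapped only through knockout replicate 3, which was above 1 control library, and the knockouts were close to each other. The log2 difference was −0.29 (SE 0.18, adjusted p = 0.468 from limma), and it was −0.09 without control replicate 3.

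The gp130 cytokines varied more between libraries than between genotypes. *Il11* (ENSMUSG00000004371), a cytokine made largely by fibroblasts in intestinal tumors, had an FPKM of 16.0, 13.0 and 14.7 in control tumors and of 27.6, 8.37 and 57.5 in knockout tumors. The controls were alike, while the knockouts held both the lowest and the 2 highest libraries of the table. The SD was 1.51 in controls and 24.8 in knockouts (n = 3 each), with a log2 difference of 0.70 (SE 0.62, adjusted p = 0.607 from limma). It was 1.43 without knockout replicate 2 (unadjusted p = 0.00404, adjusted p = 0.289) and 0.07 without knockout replicate 3. *Il6* (ENSMUSG00000025746) was near the lower end, at 0.280, 0.399 and 1.43 in control and 0.435, 0.103 and 1.95 in knockout tumors. These values rest on 174 fragments over the 6 libraries, and 126 of them were in replicate 3 of the 2 genotypes. The log2 difference was 0.01 (SE 0.59, adjusted p = 0.996 from limma), and its sign changed with the processing. *Il17a* (ENSMUSG00000025929) was lower still, between 0.286 and 0.743 in all 6 tumor libraries, with 55 fragments in all, and a difference in this gene was not detectable at this depth.

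The inducible enzymes complete the group. *Ptgs2* (ENSMUSG00000032487), which encodes cyclooxygenase-2, the inducible enzyme of prostaglandin synthesis, had an FPKM of 6.59, 5.73 and 28.7 in control tumors and of 10.7, 7.62 and 31.9 in knockout tumors. Replicate 3 was far above the others in both genotypes, by 4.65 times the mean of replicates 1 and 2 in controls and 3.49 times in knockouts. The log2 difference between genotypes, 0.40 (SE 0.73, adjusted p = 0.817 from limma), was small beside that spread, and leaving out control replicate 2 or knockout replicate 3 changed its sign. *Nos2* (ENSMUSG00000020826), the inducible nitric oxide synthase, had 14.2, 15.9 and 8.65 in control and 13.1, 11.6 and 8.34 in knockout tumors. Here replicate 3 was the lowest library of each genotype, and the log2 difference was −0.20 (SE 0.26, adjusted p = 0.737 from limma), from −0.45 without control replicate 3 to −0.01 without knockout replicate 3.

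**Figure D2:**
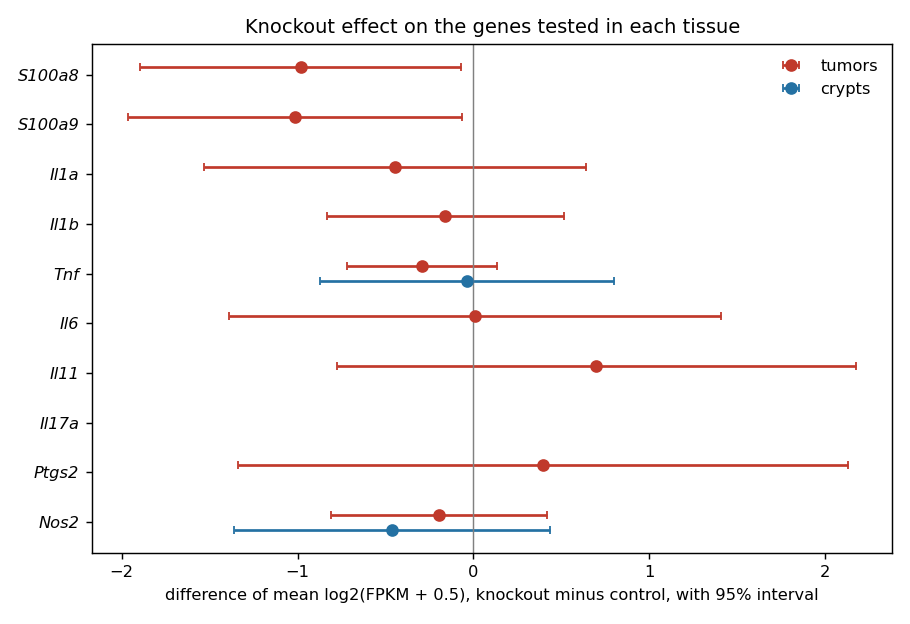
Difference of mean log2(FPKM + 0.5) between knockout and control for the genes that entered the test, 9 in tumors and 2 in crypts; points are estimates and bars 95% intervals from limma. The intervals of *S100a8* and *S100a9* in tumors end just below 0, and all others cross it.

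In order of mean FPKM over the 6 tumor libraries, *S100a9* (137) stood above *S100a8* (79.5), followed by *Il1b* (29.8), *Il11* (22.9), *Ptgs2* (15.2), *Nos2* (11.96), *Tnf* (9.80), *Il1a* (4.11), *Il6* (0.767) and *Il17a* (0.490). The ranges over the libraries overlapped between neighbors throughout, so that the order of the means is not set beyond that spread. Within libraries, *S100a9* was above *S100a8* in all 6, while *Il6* stood below *Il17a* in 4 of the 6 libraries.

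Within the tumors, 5 of the 10 genes (*Il1a*, *Il1b*, *Tnf*, *Il6* and *Ptgs2*) were highest in replicate 3 of both genotypes, where 12.6% of the 16743 tested genes were. *S100a8* and *S100a9* did not share this: they were highest in control replicate 2 and lowest in knockout replicate 2. Of the 5 listed neutrophil chemoattractants, 4 were also highest in replicate 3 of both genotypes (*Cxcl1*, *Cxcl2*, *Cxcl5* and *Ppbp*). *Cxcl1*, a ligand of CXCR2, was at 7.08, 7.01 and 26.1 in control and 10.54, 4.79 and 19.4 in knockout tumors, and *Cxcl2*, a close relative, at 9.56, 8.94 and 26.2 and at 12.5, 9.77 and 18.7. *Cxcl3* was the exception, with 3.70, 1.91 and 3.34 in knockout tumors. Replicate 3 was also the library with *Xist* in each genotype, and with 1 such library a genotype, sex and other differences between these mice cannot be told apart. With replicate 3 left out of both genotypes, a choice made after the data had been seen, the log2 difference of *S100a8* was −1.16 and that of *S100a9* −1.17, with an unadjusted p of 0.0925 and 0.0968 from limma. Between the replicate 3 libraries, 1 against 1 and so without a test, the differences were −0.63 and −0.70.

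**Figure D3:**
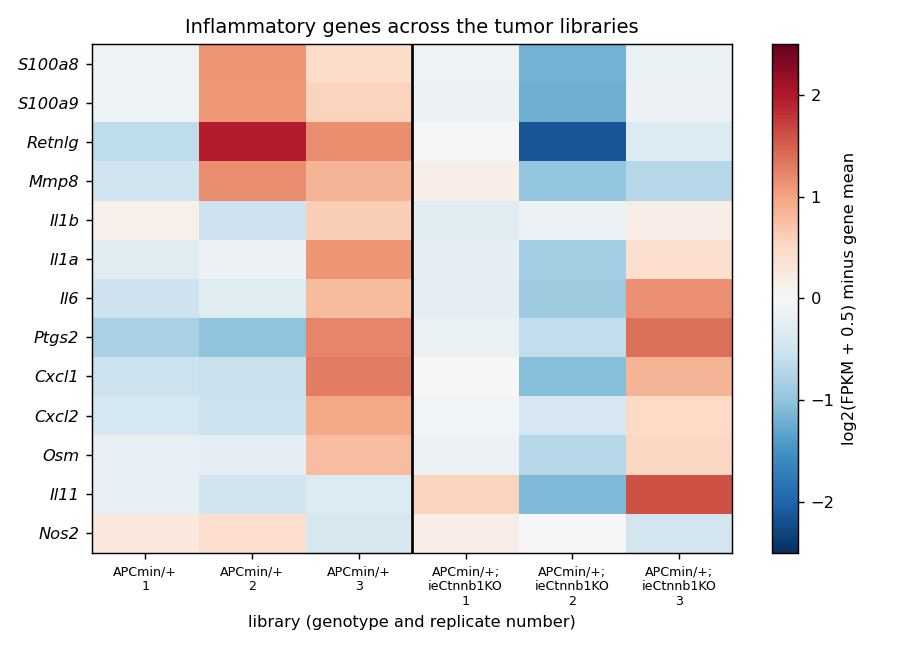
Heat map of 13 inflammatory genes in the 6 tumor libraries, with a library in each column, in which the color gives log2(FPKM + 0.5) minus the mean of the gene over the 6 libraries. *S100a8*, *S100a9*, *Retnlg* and *Mmp8* are highest in APCmin/+ replicate 2 and lowest in APCmin/+;ieCtnnb1KO replicate 2, while *Il1a*, *Il6*, *Ptgs2*, *Cxcl1*, *Cxcl2* and *Osm* are highest in replicate 3 of both genotypes. *Retnlg* and *Mmp8* do not stand for all 15 listed neutrophil markers. *Cd177* and *Mmp9*, which are not shown, were highest in APCmin/+;ieCtnnb1KO replicate 2.

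Neutrophil markers other than the calprotectin pair did not move as 1 block. All 15 passed the filter in tumors, and 11 had a log2 difference below 0 and 4 above, with a median of −0.42 beside 0.01 over all tested genes. At an unadjusted p under 0.05, 4 were lower in knockout tumors (5.997% of all tested genes) and 1 was higher (8.46% of all tested genes), and 0 had an adjusted p under 0.05. The 4 lower genes were the formyl peptide receptor *Fpr1*, the chemokine receptor *Cxcr2*, the lectin receptor *Clec4e* and *Hdc*, the enzyme that makes histamine. *Fpr1* was at 2.15, 3.30 and 2.88 in control and 1.502, 1.04 and 1.598 in knockout tumors (log2 difference −0.80, SE 0.20, adjusted p = 0.269 from limma). *Cxcr2* was at 3.71, 4.20 and 4.08 in control and 3.45, 3.09 and 2.19 in knockout tumors (log2 difference −0.42, SE 0.17, adjusted p = 0.337 from limma). *Hdc* was at 3.71, 4.85 and 14.2 in control and 3.24, 2.25 and 2.31 in knockout tumors (log2 difference −1.17, SE 0.45, adjusted p = 0.330 from limma). Its mean in controls was raised by control replicate 3. In all 4 genes the 3 knockout libraries were below the 3 controls.

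*Ly6g*, whose product is the surface antigen by which mouse neutrophils are commonly counted, went the other way. It was at 27.3, 29.7 and 28.6 in control and 46.1, 36.5 and 63.4 in knockout tumors (log2 difference 0.73, SE 0.19, unadjusted p = 0.00745, adjusted p = 0.270 from limma), and all 3 knockouts were above all 3 controls. The most abundant markers of the list, *Cd177* and *Mmp9*, are also made by other cells, and both passed the filter in crypts. In crypts *Ly6g* and *Stfa2l1* had 0 fragments in all 6 libraries. Whether the other markers of the list, the 4 lower genes included, were made by neutrophils alone was not tested. The summed FPKM of the 15 markers was 211, 275 and 236 in control and 239, 292 and 247 in knockout tumors, so that the groups overlapped, and *Cd177* made up the largest part. *Retnlg*, a secreted protein of neutrophils, was also highest in control replicate 2 and lowest in knockout replicate 2, with 11.04, 69.3 and 40.0 in control and 17.5, 3.57 and 13.7 in knockout tumors, a log2 difference of −1.66 with an SE of 0.79, but control replicate 1 was below knockout replicates 1 and 3, so that the groups overlapped. Whether the number of neutrophils differed between the genotypes was not tested.

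Granule genes that neutrophils transcribe while they mature were low. Of 8, 3 passed the filter, and *Elane*, which encodes neutrophil elastase, was at 0 in every tumor library. *Chil3* was lower in knockout tumors at an unadjusted p under 0.05, with 3.33, 6.68 and 4.22 in control and 3.31, 0.458 and 1.18 in knockout libraries (log2 difference −1.47, SE 0.50, adjusted p = 0.309 from limma). The median of the 3 was −1.23, and their summed FPKM over all 8 genes was 8.54, 16.8 and 8.86 in control and 6.76, 4.58 and 4.84 in knockout tumors.

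Of the 5 neutrophil chemoattractants, all ligands of CXCR2, 1 was lower at an unadjusted p under 0.05 (5.997% of all tested genes) and 0 were higher (8.46% of all tested genes), with a median log2 difference of 0.00. *Cxcl5*, the most abundant of them, which is made by epithelial cells, was at 43.4, 59.1 and 67.1 in control and 32.9, 26.4 and 39.4 in knockout tumors. The groups did not overlap, and the log2 difference was −0.77 (SE 0.20, unadjusted p = 0.00759, adjusted p = 0.270 from limma). *Cxcl5* was under 0.14 in every crypt library. Of 14 related cytokines, 11 passed the filter, 1 was lower and 0 were higher by the same measure (median −0.05). The 1 was the interleukin-36 gene *Il36g*, named *Il1f9* in the tables, at 3.07, 2.10 and 3.61 in control and 1.17, 1.70 and 1.91 in knockout tumors (log2 difference −0.70, SE 0.23, adjusted p = 0.302 from limma). *Il18* and *Il33*, alarmin-like cytokines held ready by epithelial and stromal cells, were the most abundant, with log2 differences of 0.01 and 0.13.

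**Figure D4:**
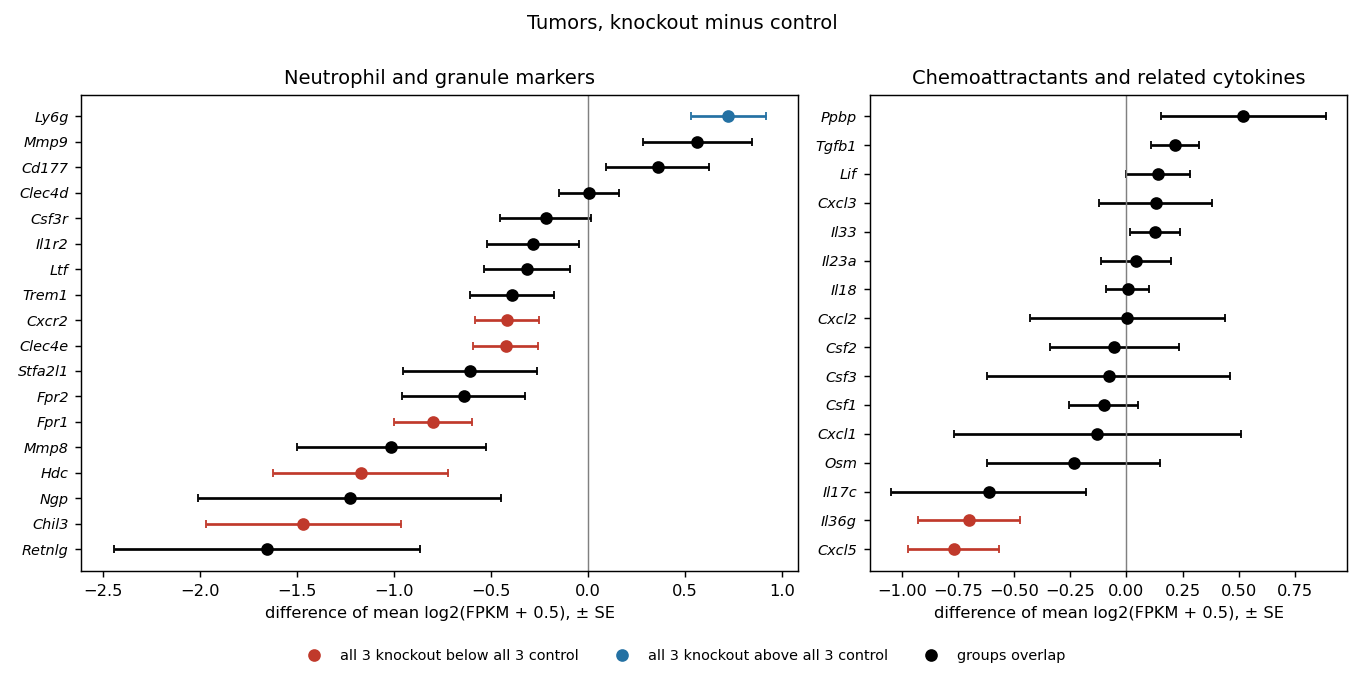
Difference of mean log2(FPKM + 0.5) between knockout and control tumors, with its SE, for the tested neutrophil and granule markers on the left and the chemoattractants and related cytokines on the right; red and blue mark genes whose 3 knockout libraries all lie below or above the 3 controls. Most neutrophil markers lie to the left of 0, *Ly6g* lies to the right, and *Cxcl5* and *Il36g* are the only red points of the right panel.

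Receptors and brakes of these ligands were counted in the same way, at an unadjusted p under 0.05, where 8.46% of all tested genes were higher in knockouts and 5.997% were lower. In these lists 0 genes were lower, and a difference of the lists from those shares was not tested. Of the 2 alarmin receptors 1 was higher, *Ager*, at 1.79, 1.44 and 1.72 in control and 2.15, 2.07 and 2.40 in knockout tumors. Of 4 interleukin-1 receptor and brake genes 1 was higher, *Il1rn*, which encodes the antagonist that blocks the interleukin-1 receptor, at 15.9, 11.1 and 14.6 in control and 16.0, 20.7 and 18.6 in knockout tumors (log2 difference 0.41, SE 0.16, adjusted p = 0.330 from limma). Of the 2 IL-17 receptor genes 1 was higher, *Il17rc*, at 17.3, 17.1 and 17.5 in control and 21.3, 20.4 and 20.9 in knockout tumors (log2 difference 0.26, SE 0.07, adjusted p = 0.272 from limma). The 2 TNF receptors, the 3 gp130 receptor genes and the 9 genes of prostaglandin synthesis and reception, of which 7 passed the filter, held 0 in either direction, with median log2 differences of 0.20, −0.02 and 0.24. Of the 6 genes that process or release interleukin-1 and TNF, 1 was higher, *Pycard*, the adaptor of the inflammasome, at 6.84, 5.42 and 4.77 in control and 9.52, 7.73 and 8.27 in knockout tumors.

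Response genes downstream of these cytokines were set beside the same shares, again with no test of the lists. Of 12 NF-κB response genes, 1 was higher in knockouts by that measure and 0 were lower, with a median log2 difference of 0.04. The most abundant, *Nfkbia*, the inhibitor that NF-κB itself induces, was at 55.2, 49.5 and 67.6 in control and 57.6, 52.5 and 67.0 in knockout tumors, level between the genotypes and highest in replicate 3 of both. The 1 was *Nfkb2*, a subunit of NF-κB, at 25.7, 25.2 and 24.6 in control and 32.5, 29.4 and 32.4 in knockout tumors (log2 difference 0.31, SE 0.08, adjusted p = 0.269 from limma). Of 10 STAT3 response genes, 9 passed the filter, 1 was higher and 0 lower (median 0.15). The 1 was the acute-phase gene *Saa1*, at 47.0, 37.5 and 20.6 in control and 63.6, 81.7 and 71.5 in knockout tumors (log2 difference 1.11, SE 0.29, adjusted p = 0.269 from limma). *Saa1* has a near-identical copy, *Saa2*, which was under 0.13 in every tumor library, and how fragments of both were assigned is not known. *Lcn2*, an antibacterial protein of inflamed epithelium, was at 88.0, 88.2 and 60.4 in control and 75.3, 41.1 and 95.1 in knockout tumors, with groups that overlapped.

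Markers of other cell types also differed in the unadjusted test, mostly in the direction opposite to *S100a8*. By the same measure and beside the same shares, 4 of 7 genes listed for the colonic surface epithelium were higher in knockout tumors and 0 lower, with a median log2 difference of 0.96, and their summed FPKM was 414, 291 and 298 in control and 581, 956 and 664 in knockout tumors. The 4 were *Car1*, *Krt20*, *Muc2* and *Fcgbp*, of which the last 3 also had a mean FPKM of at least 308 in small intestinal crypts, so that they do not mark the colon, and *Slc26a3* and *Aqp8*, transporters of colonic absorptive cells, had an unadjusted p of 0.559 and 0.279 from limma. *Muc2*, the mucin of goblet cells, was the most abundant, at 151, 123 and 114 in control and 259, 419 and 295 in knockout tumors. Of 8 fibroblast genes 5 were higher (the collagens *Col1a1* and *Col3a1*, the proteoglycan *Dcn*, the receptor *Pdgfra* and the surface protein *Thy1*) and 0 lower (median 0.46; summed FPKM 367, 233 and 225 in control and 368, 477 and 386 in knockout tumors, *Col1a1* the most abundant). Of 12 tested macrophage and monocyte genes 3 were higher and 0 lower (median 0.22; summed FPKM 801, 568 and 798 in control and 809, 1047 and 679.6 in knockout tumors, *Lyz2* the most abundant), and the 3 were *Plac8*, *C1qa* and *C1qc*.

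At an unadjusted p under 0.05, 8.46% of all tested genes were higher in knockout tumors and 5.997% were lower. Beside these shares, 2 of 8 epithelial, 2 of 5 endothelial, 1 of 5 smooth muscle and 1 of 7 tested T and innate lymphoid genes were higher. In these lists 0 were lower, and the medians were 0.36, 0.05, −0.01 and 0.46. The higher genes were *Vil1* and *Cdx1*, *Pecam1* and *Plvap*, *Acta2*, and *Thy1*, which stands in the fibroblast list too and is counted in both. In the epithelial list 8 of 8 log2 differences were above 0 and 7 had groups without overlap (11.4% of all tested genes), and the summed FPKM was 4143, 4230 and 3665 in control and 4914, 4797 and 5060 in knockout tumors, with all knockouts above all controls. B and plasma cell (4 tested), mast cell (7 tested) and crypt stem and Paneth genes (6 tested) gave 0 in either direction, with medians of 0.53, −0.17 and 0.32. Squamous epithelium, which can express *S100a8* and *S100a9* itself, was also examined. Of its 10 markers 7 were tested, 1 was higher (*Krt13*) and 1 lower (*Krt4*), with a median of 0.12. *Sprr1a* and *Krt14* were the most abundant, with a mean FPKM of 25.5 and 22.7 over the 6 tumor libraries, followed by *Krt4* (5.46) and *Krt13* (4.18), while *Krt5* and *Trp63* were under 0.04 in every tumor library and *Sprr3* was at 0. Whether squamous cells contributed *S100a8* and *S100a9* was not tested. Of 7 stomach markers 3 were tested and 1, *Atp4a*, was lower (median −0.17). In all of these lists, 0 genes had an adjusted p under 0.05. Knockout replicate 2, with the lowest *S100a8*, had the highest summed FPKM of the colonic surface, fibroblast and macrophage lists. It was also highest for the neutrophil (292), crypt stem and Paneth (3730), mast cell (128) and T and innate lymphoid lists (32.1). It was lowest for the granule (4.58) and squamous lists (44.9). The part of tissue composition in the difference of *S100a8* and *S100a9* was not tested.

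In crypts, most of the 10 genes were at or near the lower limit. *S100a8* had 0 fragments in all 6 libraries, which allows an FPKM of up to 0.258 to 0.308 per library, taking 3 fragments as the limit of a count of 0, for counting error only. *S100a9* had 3 fragments and *Il6* 3 fragments over the 6 libraries. *Il1a*, *Il1b*, *Il11*, *Il17a* and *Ptgs2* were under 0.39 in every library, with between 17 and 38 fragments each over the 6 libraries. For these 8 genes a knockout effect in crypts was not detectable at this depth.

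*Nos2* and *Tnf* passed the filter in crypts. *Nos2* was at 16.0, 47.6 and 33.7 in Wild type and 17.2, 21.6 and 25.9 in ieCtnnb1KO crypts, with the knockouts inside the range of the controls (log2 difference −0.46, SE 0.38, adjusted p = 0.905 from limma). Without Wild type replicate 1, the lowest control, it was −0.90 (unadjusted p = 0.00764, adjusted p = 0.429 from limma). Without Wild type replicate 2, the highest control, it was −0.12 (unadjusted p = 0.731 from limma). *Nos2* was the only gene of the 10 with an FPKM in crypts as high as in tumors. *Tnf* was at 1.18, 0.838 and 1.13 in Wild type and 1.84, 1.13 and 0.391 in ieCtnnb1KO crypts (log2 difference −0.04, SE 0.35, adjusted p = 0.996 from limma), and here the knockouts held both the highest and the lowest library. Of these 2 genes, 0 had an adjusted p under 0.05 (0% of the 14176 genes tested), 0 had an unadjusted p under 0.05 with higher values in knockouts (3.48% of the genes tested) or with lower values (2.36%), and 0 had groups without overlap, higher (6.79%) or lower (5.15%). Over all tested crypt genes, 494 were higher and 335 lower by the unadjusted p, and the numbers were 473 and 289 after rescaling to the same sum, 460 and 342 with voom, but 313 and 475 after rescaling without the 50 highest genes.

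The lists described for tumors were also counted in crypts. The 17 tested NF-κB and STAT3 response entries included 0 higher at an unadjusted p under 0.05 (3.48% of all tested crypt genes) and 2 lower (2.36%), *Nfkb2* and *Socs3*, the feedback inhibitor of STAT3, which was at 18.7, 20.52 and 37.2 in Wild type and 11.9, 14.7 and 14.7 in ieCtnnb1KO crypts (log2 difference −0.80, SE 0.26, adjusted p = 0.799 from limma). All other receptor, processing, chemoattractant and related cytokine lists gave 0 in either direction, and 0 chemoattractants passed the filter. Of 15 neutrophil markers only *Cd177* and *Mmp9* passed it, and the other 13 had at most 92 fragments each over the 6 libraries.

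Among cell type lists in crypts, T and innate lymphoid (10 tested), macrophage and monocyte (8 tested) and colonic surface genes (5 tested) each held 1 gene that was higher at an unadjusted p under 0.05 (*Cd3d*, *Plac8* and *Slc26a3*; 3.48% of all tested crypt genes) and 0 that were lower (2.36%), with medians of 0.03, −0.44 and −0.08 beside 0.01 over all tested genes. B and plasma cell genes (6 tested) held 2 that were lower (*Jchain* and *Mzb1*), fibroblast (3 tested) and crypt stem and Paneth genes (7 tested) 1 each (*Col3a1* and *Mmp7*), and stomach genes (4 tested) 4 (*Gkn1*, *Gkn2*, *Gkn3* and *Pgc*), with medians of −0.23, −0.54, −0.40 and −2.26. Neutrophil (2 tested), mast cell (3 tested), endothelial (1 tested), epithelial (8 tested) and squamous genes (1 tested) held 0 in either direction, with medians of −0.35, 0.53, −0.11, −0.00 and −0.67. No granule or smooth muscle gene was tested, and 0 genes of these lists had an adjusted p under 0.05.

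To ask whether the knockout effect differed between the tissues, the difference in tumors was compared with that in crypts in 1 fit over the 12 libraries, in which 8 of the 10 genes were tested. The log2 difference of the effects was −0.98 (SE 0.43, unadjusted p = 0.0427, adjusted p = 0.545 from limma) for *S100a8* and −0.90 (SE 0.46, unadjusted p = 0.0769, adjusted p = 0.603) for *S100a9*. None of the 8 had an adjusted p under 0.05 (0% of the 16252 genes tested), and 1, *S100a8*, had an unadjusted p under 0.05 (8.95% of the genes tested). Over all genes, 837 had a higher and 618 a lower effect in tumors at that threshold, and 608 and 811 after rescaling to the same sum, but 836 and 585 after rescaling without the 50 highest genes. Of the 8 genes only *Tnf* and *Nos2* passed the filter in crypts. For the other 6, with a mean crypt FPKM from 0 to 0.211, the value mostly restates the difference in tumors and is no test of a difference between the tissues. With *S100a9* at 3 fragments in crypts, its value also depended on the pseudocount, and was −0.61 with 0.1.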

How the data were processed

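RNA-seq libraries of 6 tumor samples and 6 crypt samples were sequenced by the authors as paired-end reads of 150 bases. Reads were aligned with HISAT2 2.0.5 and counted on genes with featureCounts 1.5.0-p3 per the methods. The submitters' processing notes name HISAT2, Cufflinks 2.2.1 and mm10. The authors deposited FPKM of each gene, 1 column per library, in a table for each tissue, and 0 sample columns were left unmapped. Which of featureCounts and Cufflinks gave the FPKM, and whether the strand was used, was not clear from these sources. FPKM times gene length was a whole multiple of 1 step in each library for 100% of the values above 0 (tolerance 0.1), from which fragments were recovered.

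log2(FPKM + 0.5) was compared with limma 3.58.1 in R 4.3.3, with a variance trend and no covariates, over genes whose mean FPKM was 0.5 or more, and p-values were adjusted over all tested genes with a threshold of 0.05. This scale understates changes of low genes. Tumors and crypts were fitted separately, and the difference between their knockout effects was fitted over 12 libraries. Python 3.11.15, numpy 2.4.6, pandas 2.3.3 and scipy 1.17.1 served for tables and exact permutation tests, and matplotlib 3.10.9 for figures. Methods were tested on simulated data in which the spread between libraries was set the same for every gene. Such a run does not measure what the fits can detect in these tumors.

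The members and the gene lists were chosen with earlier results of these data known. Named are the 10 members, *Ctnnb1*, the 5 genes most like *S100a8* and *Il1b*, and from each list up to 4 genes with the highest mean FPKM in tumors and those with an unadjusted p under 0.05 in either table. *Xist*, *Olfm4*, *Cxcl3*, *Aqp8*, *Mmp8*, *Osm*, *Elane*, *Krt5*, *Trp63*, *Sprr3*, *Saa2* and *Stfa2l1*, and the comparison of replicate 3, were chosen after the values had been seen. Listed *Il36a* and *Il36g* were matched by older names. Replicates are separate samples by their labels, which do not say that each is 1 mouse. The paper's figure captions give 3 mice of each genotype for the expression profiles of both tissues. The p-values measure the spread between these samples. Alternatives were pseudocounts of 0.1 and 1, other filters, 2 rescalings, no variance trend, a replicate block, leaving out each library, and voom on recovered fragments.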

Additional observations from a re-analysis of the deposited data

Results flagged for a closer look

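*Nfkb2* stood out because its groups did not overlap in either tissue and the directions were opposite. FPKM was 25.7, 25.2 and 24.6 in control and 32.5, 29.4 and 32.4 in knockout tumors, and 14.1, 15.6 and 14.5 in Wild type and 10.6, 11.02 and 12.5 in ieCtnnb1KO crypts. The log2 difference between knockout and control was 0.31 in tumors and −0.36 in crypts, and the difference of the effects was 0.67 (unadjusted p = 0.000229, adjusted p = 0.325 from limma over 16252 genes), which does not pass the threshold. The cause was not tested.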

How the results depend on the processing

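Of 215 values of the 10 genes under alternatives, 201 kept the direction of the main analysis and 0 had an adjusted p under 0.05. *S100a8* and *S100a9* in tumors stayed below 0 in all 16 alternatives each, from −1.27 to −0.64 and from −1.33 to −0.65, with an adjusted p from 0.212 to 0.697 and from 0.207 to 0.703, and an unadjusted p under 0.05 in 11 of 16. *Il6* in tumors was −0.13 with a pseudocount of 0.1, −0.017 with either rescaling and −0.28 with voom. Leaving out 1 library gave −0.56 to 0.45 for *Il6*, −0.19 to 1.11 for *Ptgs2*, −0.46 to 0.11 for *Il1b* in tumors, and −0.36 to 0.34 for *Tnf* in crypts. The difference of effects of *Il1b* was 0.16 with a pseudocount of 0.1. The number of the 10 genes with an unadjusted p under 0.05 in tumors, 2, was 1 with the replicate block (*Ptgs2*, with 0.0308 from limma, while *S100a8* and *S100a9* had 0.0769 and 0.0753 and lost the call), 0 without replicate 3 of both genotypes, and 0 to 2 with 1 library left out (0 without control replicate 2 or 3, 1 without knockout replicate 2). In crypts it was 0 to 1 with 1 library left out. Over all genes in tumors, 2421 had an unadjusted p under 0.05 in the main analysis, 1218 without both replicates 3 and 1396 to 2752 with 1 library left out, and in crypts 829, 1349 without a filter and 458 to 1341. An adjusted p under 0.05 was found for 1 gene in tumors with no variance trend, for 0 to 3 in crypts with 1 library left out (3 without Wild type replicate 3), and for 1 in the difference of effects with a pseudocount of 0.1. Genes higher and lower in knockout tumors at an unadjusted p under 0.05 were 1417 and 1004, but 1075 and 1346 after rescaling to the same sum, 1072 and 1354 without the 50 highest genes and 1100 and 1572 with voom. In crypts they were 494 and 335, with 473 and 289 after rescaling to the same sum, 460 and 342 with voom and 313 and 475 without the 50 highest genes. The cause was not tested. Libraries with the same replicate number did not deviate together over all tested genes (correlations of 0.054, −0.090 and 0.053 in tumors and −0.047, −0.122 and 0.037 in crypts). Libraries with unlike numbers gave −0.172 to 0.133 in tumors and −0.201 to 0.253 in crypts. With 3 libraries a genotype, these values do not decide whether the numbers pair samples. Depth limits *Il6*, *Il17a* and 8 of the 10 genes in crypts.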

Other observations

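In crypts, 4 of 7 stomach markers passed the filter, and all 4 were lower in knockouts at an unadjusted p under 0.05 (2.36% of all tested crypt genes). The groups overlapped in all 4. *Gkn2*, a secreted protein of the stomach lining, was at 12.3 and 15.1 in Wild type replicates 1 and 2, and at 0 in Wild type replicate 3 and in all 3 ieCtnnb1KO libraries. *Gkn1* was at 7.08 and 8.27 in the same 2 libraries and at 0 in the other 4. The 2 libraries with these genes are within 1 group, so that this difference between libraries and the genotype cannot be told apart for genes that the stomach also expresses. *Nos2* in the same 2 libraries was at 16.0 and 47.6, the lowest and the highest of the table.

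*Plac8*, which is made by myeloid cells and by the intestinal epithelium, was higher in knockouts in both tissues, with groups that did not overlap. It was at 117, 92.2 and 95.7 in control and 133, 187 and 128 in knockout tumors, and at 438, 416 and 468 in Wild type and 672, 583 and 619 in ieCtnnb1KO crypts. The log2 differences were 0.54 and 0.50, with an adjusted p of 0.302 and 0.797 from limma. *Cd3d*, a chain of the T cell receptor complex, was at 3.45, 4.54 and 5.34 in Wild type and 6.40, 6.51 and 5.45 in ieCtnnb1KO crypts, while *Jchain*, which joins the chains of secreted antibodies, was at 10.4, 14.4 and 11.4 and at 8.10, 9.01 and 8.71 (adjusted p = 0.844 and 0.797 from limma).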
